A study of Mus musculus with 6 samples.

Results

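The ATP-binding cassette (ABC) transporters were examined in whole testes of C57BL/6J mice after exposure to the herbicide atrazine (ATZ). Members were taken by gene symbol: every gene whose symbol in the annotation of the arrays begins with Abca to Abcg and a digit, read from a probe set that carries this symbol alone. This gave 48 genes of the 22180 with such a probe set, namely 16 of subfamily A, 9 of B, 10 of C, 3 of D, 1 of E, 3 of F and 6 of G. Each of the 48 has 1 probe set, and no probe set lists an ABC symbol among several. The treated group is made of 3 samples labelled Atrazine_treated, from mice that drank water with 100 mg/l of ATZ (near 25 mg/kg per day) over 3 weeks, followed by 2 weeks without it. The control group is made of 3 samples labelled Control, and testes of both groups were taken at 10 weeks of age. Nothing in the labels tells if each sample came from its own animal. The p-values therefore cover only the spread among these 6 samples, which may be technical. The comparison addresses which testis transcripts differ after the exposure.

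ABC proteins bind and hydrolyze ATP at a conserved cassette, and most of them use that energy to move lipids, sterols, peptides, bile salts, drugs or metals across a membrane. Subfamily A holds mainly lipid transporters, B and C hold the classical drug exporters beside transporters with single substrates, D serves peroxisomes and lysosomes, and G holds sterol transporters and Abcg2. Subfamilies E and F have the cassettes but no membrane domain, and they act on ribosomes. In the testis, exporters such as P-glycoprotein, which Abcb1a and Abcb1b encode in the mouse, and Abcg2 are known from vessels and the blood-testis barrier, where they limit the entry of foreign compounds. Sertoli and Leydig cells handle much cholesterol, and Abca1 removes it from cells.

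The values are log2 signals made by robust multi-array average (RMA) on Affymetrix mouse gene 2.0 st arrays, so a difference of 1 is a doubling. Signals of different probe sets depend on their probes, and no order of abundance between genes is drawn from them. The median over all 41345 probe sets lay between 6.6 and 6.69 on the 6 arrays. Means of 35 of the 48 ABC genes (72.9%) were above 6.62, the median of all probe-set means. Of all 22180 genes 64.3% were above it. As a check of the tissue label, every measured marker was above that median for round spermatids (6 genes), elongating spermatids (6), Sertoli cells (8) and Leydig cells (5), and 2 of 7 were for epididymal epithelium. Since signals depend on probes and no detection calls were used here, these counts are a description. Each value is an average over all cells of the organ, so fewer cells of a type and less RNA per cell cannot be told apart.

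Several ABC genes are neighbors in the genome and are copies of each other. In the RefSeq annotation of GRCm38.p6, Abca8b, Abca8a, Abca9, Abca6 and Abca5 form a run of 5 genes on chromosome 11, Abca14, Abca15 and Abca16 a run of 3 on chromosome 7, and Abcb1a, Abcb1b and Abcb4 a run of 3 on chromosome 5. Abca17 lies beside Abca3, and Abcg5 beside Abcg8, both on chromosome 17. Whether probes of these related genes also bind the transcript of a neighbor was not tested.

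Promoter windows of RefSeq, from 250 bases before to 50 after a transcription start, were matched by symbol for 38 of the 48 genes, with 45 windows. The windows below are shown because they belong to a gene of the testis run on chromosome 7 (Abca14), to the divergent pair Abca17 and Abca3, to the ribosome factor Abce1 and to the sterol transporter Abcg5, whose values are described further on. They are written 5′ to 3′ on the strand of the gene, and capitals mark any match on either strand to the cAMP response element TGACGTCA, to its core TGACG, to the GC box GGGCGG, to the TATA box TATAAA, to the Nr5a core AAGGTCA or to the E-box CACGTG.
Abca14 (chr7:120203714-120204013, plus strand): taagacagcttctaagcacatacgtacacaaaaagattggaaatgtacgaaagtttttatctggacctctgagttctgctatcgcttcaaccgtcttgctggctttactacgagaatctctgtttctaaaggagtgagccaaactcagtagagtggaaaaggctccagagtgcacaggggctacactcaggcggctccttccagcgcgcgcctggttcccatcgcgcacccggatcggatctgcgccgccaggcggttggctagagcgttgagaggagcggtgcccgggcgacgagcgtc
Abca17 (chr17:24351010-24351309, minus strand): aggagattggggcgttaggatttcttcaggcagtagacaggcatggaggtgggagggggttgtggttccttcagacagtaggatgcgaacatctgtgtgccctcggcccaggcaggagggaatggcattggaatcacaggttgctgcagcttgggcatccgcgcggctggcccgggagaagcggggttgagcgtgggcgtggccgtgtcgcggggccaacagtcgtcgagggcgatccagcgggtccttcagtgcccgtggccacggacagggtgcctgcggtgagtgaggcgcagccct
Abca3 (chr17:24351773-24352072, plus strand): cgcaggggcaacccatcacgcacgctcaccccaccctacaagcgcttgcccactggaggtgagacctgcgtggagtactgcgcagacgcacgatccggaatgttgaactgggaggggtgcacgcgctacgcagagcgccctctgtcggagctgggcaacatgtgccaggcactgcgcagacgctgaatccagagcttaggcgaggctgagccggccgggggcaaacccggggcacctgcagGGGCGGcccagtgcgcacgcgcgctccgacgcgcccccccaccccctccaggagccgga
Abce1 (chr8:79711691-79711990, minus strand): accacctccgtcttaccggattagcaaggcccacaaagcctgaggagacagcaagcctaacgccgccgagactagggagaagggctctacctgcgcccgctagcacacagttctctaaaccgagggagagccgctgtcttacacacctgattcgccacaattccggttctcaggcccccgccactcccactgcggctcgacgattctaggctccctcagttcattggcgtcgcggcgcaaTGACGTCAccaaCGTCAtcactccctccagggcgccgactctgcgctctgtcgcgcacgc
Abcg5 (chr17:84682962-84683261, minus strand): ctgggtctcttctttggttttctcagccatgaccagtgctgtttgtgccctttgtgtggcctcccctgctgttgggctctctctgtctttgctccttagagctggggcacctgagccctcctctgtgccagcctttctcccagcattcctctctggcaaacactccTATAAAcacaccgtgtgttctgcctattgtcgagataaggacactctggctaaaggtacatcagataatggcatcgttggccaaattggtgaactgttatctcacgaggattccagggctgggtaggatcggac
The starts of Abca17 and Abca3 are 964 bases apart on opposite strands. For Abcg8 the windows give 2 starts. The one nearer to Abcg5 is 110 bases from its start, so that these windows share 209 bases, and the window of the other start shares 0 with it. The cAMP response element TGACGTCA was present in windows of Abce1 and Abcg2 (4.44% of the ABC windows), and in 1.79% of all 32851 windows. Its shorter core TGACG, which every full element also holds, was found in 7 of the 38 genes, among them Abce1, Abcf1, Abcf2 and Abcf3. This core was in 20.0% of the ABC windows and in 20.8% of all windows. The GC box GGGCGG occurred in 18 of the 38 genes (46.7% of their windows, 35.7% of all windows). AAGGTCA, the core bound by receptors of the Nr5a family, occurred in Abcc2, Abcc10 and Abcg2 (6.67% of the ABC windows, 4.72% of all windows). TATAAA occurred in 6 genes (15.6% of the ABC windows, 13.6% of all windows) and CACGTG in 6 genes (13.3% of the ABC windows, 7.15% of all windows). The windows of Abca14 and Abca17 held none of these motifs.

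**Figure D1:**
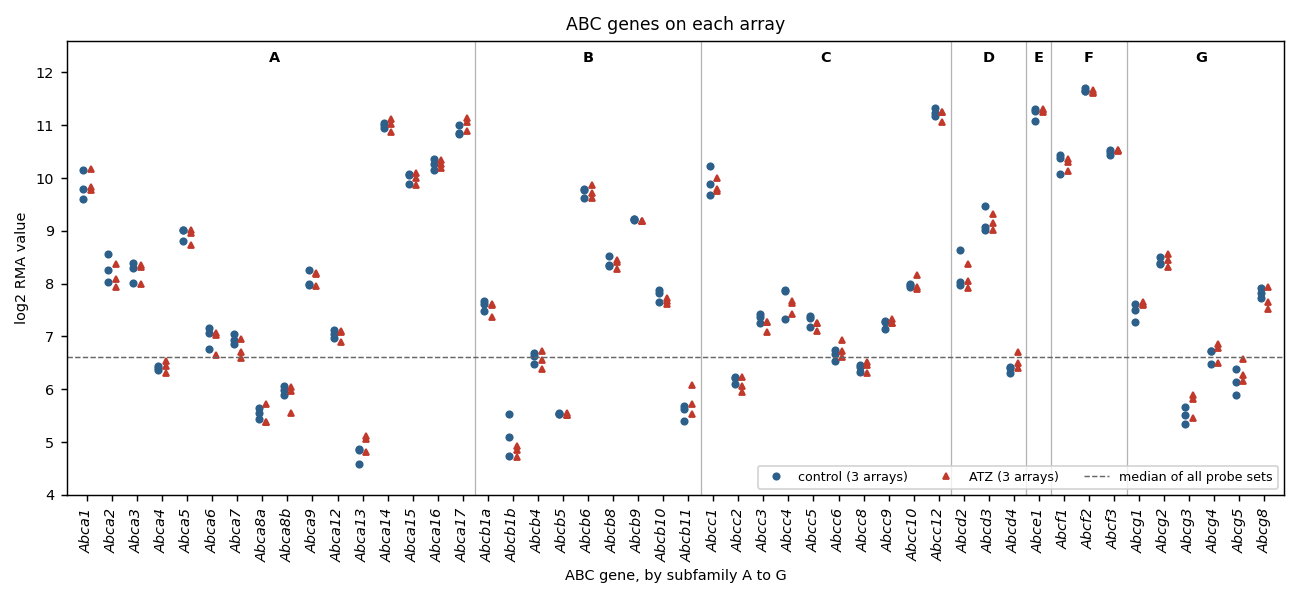
Log2 RMA value of the 48 ABC genes, with subfamilies A to G from left to right. Circles are the 3 control arrays, triangles the 3 ATZ arrays, and the dashed line is the median of all probe-set means, 6.62. For every gene except Abcb9 the circles and triangles overlap, and the values run from 4.59 to 11.71.

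No ABC gene passed the test for a difference between ATZ-treated and control testes. With limma and p-values adjusted over all 41345 probe sets, 0 of the 48 genes had an adjusted p under 0.05 (0% of all probe sets), and the smallest adjusted p among them was 0.998. At an unadjusted p under 0.05 the count was also 0 of 48, where 2.39% of all 22180 genes passed, and the trended, robust form of limma also gave 0. The smallest unadjusted p was 0.122, for Abca13. Of the 48 log2 changes (ATZ minus control), 20 were above and 28 below 0, while 49.1% of all genes were above 0. Their median was -0.02, against 0.0 over all genes. With arrays centred on their medians the split became 15 above and 33 below 0, and without control replicate 2 it was 25 above and 23 below. Centring moved all probe sets too, and their median log2 change became -0.03 instead of 0.0. Without control replicate 2 it was 0.01.

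The precision of these differences is given by their 95% intervals, taken for each gene alone. For 44 of the 48 genes the whole interval lay within a 1.5-fold change in either direction, which is 0.58 on the log2 scale. Among all genes 87.2% had such an interval. The exceptions were Abcb1b, Abcb11, Abcd2 and Abcg5. Standard errors of the ABC genes ranged from 0.07 to 0.21 with a median of 0.11, and the median over all genes was 0.11 too. In 1 of the 48 genes, Abcb9, the groups did not overlap, where 6.91% of all genes had no overlap, 3.08% with ATZ lower.

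**Figure D2:**
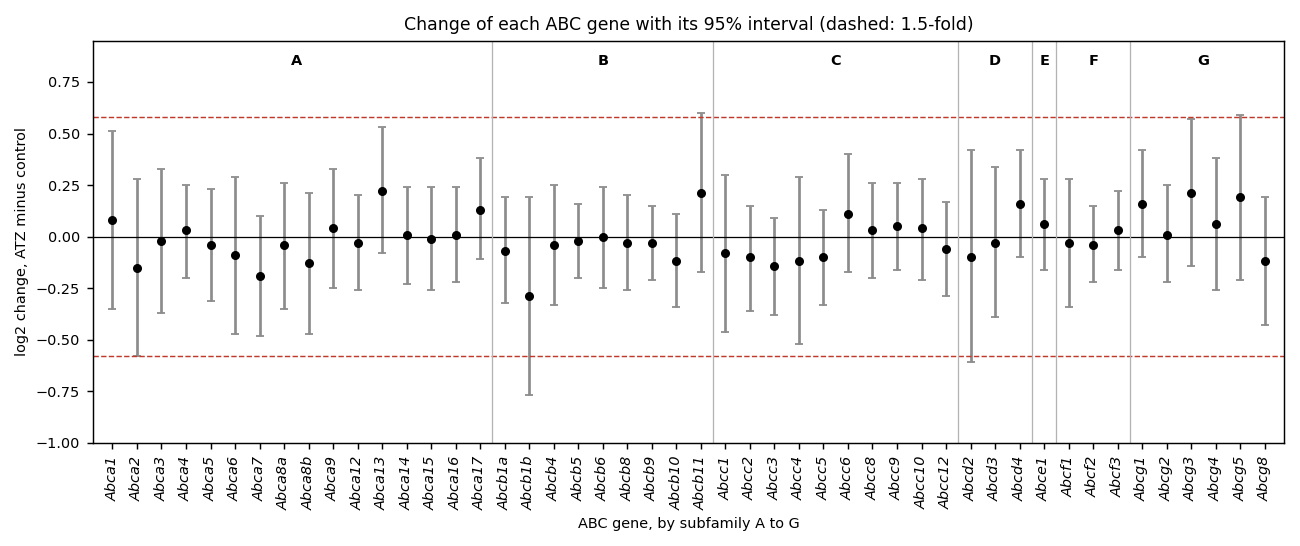
Log2 change, ATZ minus control, of each of the 48 ABC genes by subfamily, with bars for the 95% interval from limma (n = 3 arrays per group) and dashed lines at a 1.5-fold change. The points lie between -0.29 and 0.22, every interval includes 0, and those of Abcb1b, Abcb11, Abcd2 and Abcg5 cross a dashed line.

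The exporters of drugs and other foreign compounds gave 2 log2 changes above 0 and 7 below among 9 genes, with a median of -0.10. Abcb1b, a gene for P-glycoprotein, measured 4.72, 4.86 and 4.92 in the ATZ-treated samples and 4.74, 5.53 and 5.09 in the controls. Its signal was at the dim end of the array, and the spread came from the controls, which range from a value near the lowest ATZ array to the highest of all 6 arrays. The log2 change was -0.29 (standard error 0.20, 95% interval from -0.77 to 0.19), the lowest of the family. It was -0.08 without control replicate 2. Without control replicate 1 it was -0.48 with an unadjusted p of 0.0298 and an adjusted p of 0.999 from limma. Abcb1a, the other gene for P-glycoprotein and the form known from the mouse blood-brain barrier, measured 7.61, 7.37 and 7.6 in ATZ-treated and 7.67, 7.62 and 7.49 in control samples. These ranges overlap, and the log2 change was -0.07 (standard error 0.11, 95% interval from -0.32 to 0.19).

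Abcg2, the breast cancer resistance protein, which exports drugs and sulfated steroids, measured 8.56, 8.44 and 8.31 with ATZ and 8.38, 8.5 and 8.39 in controls. The control values lie inside the ATZ range, with a log2 change of 0.01 (standard error 0.10, 95% interval from -0.22 to 0.25). Abcc1, an exporter of glutathione conjugates, measured 10.0, 9.79 and 9.76 with ATZ and 9.89, 10.22 and 9.67 in controls. Control replicate 2 was the highest and control replicate 3 the lowest array for Abcc1, and the log2 change was -0.08 (standard error 0.16). Abcc3, known from the basolateral membrane of liver and gut cells, measured 7.28, 7.08 and 7.27 with ATZ and 7.37, 7.43 and 7.26 in controls. ATZ replicate 2 was its lowest array, and its log2 change of -0.14 (standard error 0.10) is the lowest in subfamily C. Abcc4, which carries cyclic nucleotides and prostaglandins, measured 7.64, 7.67 and 7.43 with ATZ and 7.88, 7.87 and 7.34 in controls. Here control replicate 3 stood below all other arrays. The log2 change of -0.12 (standard error 0.17) became -0.30 without it, with an unadjusted p of 0.0469 and an adjusted p of 0.834 from limma. Abcc2, an exporter of the bile canaliculus, and Abcc5, which carries cyclic nucleotides, each changed by -0.10 on the log2 scale (standard errors 0.11 and 0.10), and Abcc10 had 0.04 (standard error 0.10).

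Among 6 genes for the efflux of cholesterol and phospholipids, the log2 change was positive in 4 and negative in 2, and its median was 0.07. Abca1 loads cholesterol onto apolipoprotein A-I, and it measured 10.17, 9.84 and 9.77 in ATZ-treated and 9.79, 10.16 and 9.6 in control samples. ATZ replicate 1 and control replicate 2 were almost equal and above the other arrays. The log2 change was 0.08 (standard error 0.18, 95% interval from -0.35 to 0.51), and 0.23 without control replicate 2. Abcg1, which passes cholesterol on to high-density lipoprotein, measured 7.59, 7.65 and 7.62 with ATZ and 7.5, 7.61 and 7.28 in controls. The 3 ATZ values are close together and only control replicate 2 reaches them, with a log2 change of 0.16 (standard error 0.11, 95% interval from -0.10 to 0.42). Abca7, a relative of Abca1 that moves phospholipids, measured 6.96, 6.6 and 6.7 with ATZ and 6.93, 7.04 and 6.86 in controls. ATZ replicate 1 lies among the controls and the other ATZ arrays lie below them. Its log2 change was -0.19 (standard error 0.12), and without ATZ replicate 1 it was -0.29 with an unadjusted p of 0.0403 and an adjusted p of 0.989 from limma.

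Abcg5 and Abcg8 form a joint sterol exporter of liver and gut from genes that are neighbors. Abcg5 measured 6.15, 6.27 and 6.57 with ATZ and 6.13, 5.9 and 6.39 in controls, a log2 change of 0.19 (standard error 0.17, 95% interval from -0.21 to 0.59). Abcg8 measured 7.53, 7.65 and 7.93 with ATZ and 7.92, 7.72 and 7.83 in controls, a log2 change of -0.12 (standard error 0.13). Both had their lowest ATZ value in replicate 1 and their lowest control value in replicate 2, and both pairs of groups overlap. Abcg4, a relative of Abcg1 known from the brain, had 0.06 (standard error 0.13). Of 12 measured partners of cholesterol efflux from a list of 14, such as lipoprotein receptors and sterol-sensing factors, 0 had an unadjusted p under 0.05, and the largest log2 change was -0.16 (standard error 0.11), for the retinoid receptor Rxra.

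The other lipid transporters of subfamily A had 6 log2 changes above 0 and 8 below among 14 genes, with a median of -0.02. Abca14, Abca15, Abca16 and Abca17 are known from the mouse as genes of the testis, and each gave at least 9.87 on every array. Abca14 measured 10.87, 11.11 and 11.03 with ATZ and 11.05, 10.94 and 11.0 in controls. Abca15 measured 9.87, 10.1 and 10.01 with ATZ and 10.08, 9.88 and 10.05 in controls. Abca16 measured 10.19, 10.34 and 10.26 with ATZ and 10.26, 10.15 and 10.36 in controls. In these 3 genes of 1 chromosomal run the groups overlap almost fully. The log2 changes were 0.01 for Abca14 and Abca16 and -0.01 for Abca15, each with a standard error of 0.10, and no 95% interval reached beyond -0.26 or 0.24. Abca17, which is known from germ cells and lies beside Abca3, measured 10.9, 11.07 and 11.13 with ATZ and 10.85, 10.84 and 11.01 in controls. Its ATZ values are slightly higher on average and overlap the controls at ATZ replicate 1, with a log2 change of 0.13 (standard error 0.10, 95% interval from -0.11 to 0.38).

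Abca3, the surfactant lipid transporter of the lung, starts 964 bases from Abca17 in the other direction and measured 8.31, 8.35 and 8.0 with ATZ and 8.3, 8.4 and 8.02 in controls. The third array of each group was the lowest one, and the log2 change was -0.02 (standard error 0.15). Abca2, a lipid transporter of lysosomes, measured 8.38, 7.93 and 8.09 with ATZ and 8.25, 8.57 and 8.03 in controls. Control replicate 2 was its highest array. The log2 change of -0.15 (standard error 0.18) became -0.01 without that array. Abca13, a very large member of the subfamily, measured 5.06, 4.82 and 5.11 with ATZ and 4.59, 4.86 and 4.87 in controls. This dim gene had the highest log2 change of the family, 0.22 (standard error 0.13, 95% interval from -0.08 to 0.53), and its groups overlap by ATZ replicate 2. Abca8b measured 6.04, 5.56 and 5.96 with ATZ and 6.06, 5.99 and 5.9 in controls, with ATZ replicate 2 alone below the controls and a log2 change of -0.13 (standard error 0.14). Its neighbors in the run on chromosome 11 had log2 changes of -0.04 for Abca8a, 0.04 for Abca9, -0.09 for Abca6 and -0.04 for Abca5. Abca4, the retinoid transporter of photoreceptors, had 0.03 and Abca12, which carries lipids of the skin barrier, -0.03.

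The remaining members of subfamilies B, C and G included Abcc12, which is known as a testis gene of the mouse. It measured 11.06, 11.25 and 11.25 with ATZ and 11.24, 11.18 and 11.33 in controls. ATZ replicate 1 was its lowest array, the groups overlap, and its log2 change was -0.06 (standard error 0.10, 95% interval from -0.29 to 0.17). Abcb11, the bile salt export pump of the liver, measured 5.54, 5.72 and 6.08 with ATZ and 5.68, 5.4 and 5.62 in controls. ATZ replicate 3 stood above the rest in this dim gene, with a log2 change of 0.21 (standard error 0.16, 95% interval from -0.17 to 0.60). Abcg3, a rodent gene, measured 5.46, 5.81 and 5.89 with ATZ and 5.67, 5.34 and 5.51 in controls. ATZ replicate 1 lies among the controls and the other ATZ arrays above them. The log2 change was 0.21 (standard error 0.15), and 0.34 without ATZ replicate 1, with an unadjusted p of 0.0446 and an adjusted p of 0.989 from limma. Abcb4, which brings phosphatidylcholine into bile, had -0.04, Abcb5 -0.02 and Abcc6 0.11. The sulfonylurea receptors Abcc8 and Abcc9, regulatory subunits of potassium channels, had 0.03 and 0.05, and their pore partners Kcnj11 and Kcnj8 had 0.04 and 0.14.

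Among the transporters listed as mitochondrial, Abcb6 measured 9.86, 9.71 and 9.63 with ATZ and 9.78, 9.8 and 9.63 in controls. The group means of 9.73 and 9.74 are nearly equal, with a 95% interval of the log2 change from -0.25 to 0.24. Abcb10, which is needed for haem synthesis in red cell precursors, measured 7.72, 7.62 and 7.67 with ATZ and 7.66, 7.88 and 7.82 in controls. Only control replicate 1 falls inside its ATZ range, and the log2 change was -0.12 (standard error 0.09). Abcb8 had -0.03 (standard error 0.10). Of 6 measured partners in iron-sulfur and haem synthesis from a list of 9, 0 had an unadjusted p under 0.05, and the largest log2 change was -0.29 (standard error 0.12, unadjusted p = 0.0547 and adjusted p = 0.998 from limma) for Fech, the ferrochelatase that completes haem.

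Abcb9, which pumps peptides into lysosomes, is the gene without overlap. It measured 9.18 on all 3 ATZ arrays and 9.22, 9.2 and 9.22 in controls. The gap between the nearest arrays of the groups is small beside the standard error of 0.07 from limma, and the log2 change was -0.03 (adjusted p = 0.998 from limma). Quantile normalization repeated on the 6 arrays gave a log2 change of 0.0 for it. Tap1 and Tap2, the ABC proteins that load peptides for immune presentation under other symbols, had log2 changes of 0.02 and -0.01. The chloride channel Cftr, also an ABC protein, had 0.14 (standard error 0.08).

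In subfamily D the median within-group SD was 0.21, against 0.12 over the 48 genes. Abcd2, which brings very long fatty acids into peroxisomes, measured 8.05, 8.38 and 7.92 with ATZ and 7.97, 8.64 and 8.03 in controls. Replicate 2 was the highest array in both groups. The log2 change was -0.10 (standard error 0.21, 95% interval from -0.61 to 0.42), and 0.12 without control replicate 2. Abcd3, the abundant peroxisomal membrane protein, measured 9.15, 9.31 and 9.02 with ATZ and 9.07, 9.48 and 9.01 in controls, again with replicate 2 on top. Its log2 change was -0.03 (standard error 0.15). Abcd4, which works in the lysosomal export of cobalamin, measured 6.5, 6.4 and 6.71 with ATZ and 6.3, 6.4 and 6.43 in controls. Its highest array was ATZ replicate 3, the groups overlap, and the log2 change was 0.16 (standard error 0.11). None of 7 measured peroxisomal partners of 8 listed had an unadjusted p under 0.05 with limma, and the largest change was -0.19 (standard error 0.10), for the import receptor Pex5.

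The ribosome-bound proteins of subfamilies E and F had a median within-group SD of 0.06. Abce1 splits ribosomes after termination, and it measured 11.3, 11.28 and 11.25 with ATZ and 11.08, 11.3 and 11.27 in controls. Control replicate 1 alone was lower, and the log2 change was 0.06 (standard error 0.09, 95% interval from -0.16 to 0.28). Abcf2 measured 11.62, 11.61 and 11.67 with ATZ and 11.65, 11.65 and 11.71 in controls, with a log2 change of -0.04 (standard error 0.08, 95% interval from -0.22 to 0.15). Abcf3 measured 10.51, 10.53 and 10.53 with ATZ and 10.44, 10.49 and 10.54 in controls, with a log2 change of 0.03. In both genes the 6 arrays lie within a narrow band. Abcf1, a factor of translation initiation, measured 10.13, 10.36 and 10.31 with ATZ and 10.07, 10.38 and 10.43 in controls, where replicate 1 was the lowest array of each group. Of 6 measured partners of Abce1 in ribosome recycling and its control, from 9 listed names, 0 had an unadjusted p under 0.05. Pelo, which works with Abce1 on stalled ribosomes, had 0.19 (standard error 0.08, unadjusted p = 0.0631 and adjusted p = 0.998 from limma).

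Over all companion lists, which also covered xenobiotic sensors such as Ahr and Nr1i2, solute carriers for organic ions, and peptide loading, 58 genes were measured of 69 names listed. None had an adjusted p under 0.05 with limma, 0 had an unadjusted p under 0.05, and 28 log2 changes were above and 30 below 0. The largest change among 10 solute carriers was 0.28 (standard error 0.16), for the organic anion transporter Slco4a1, among 6 xenobiotic sensors -0.12 (standard error 0.10), for Arnt, the partner of the aryl hydrocarbon receptor, and among 6 peptide loading genes -0.08, for the proteasome subunit Psmb8.

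On control replicate 2, some ABC genes and the marker lists of Sertoli, Leydig, peritubular and endothelial cells and leukocytes lay above the control mean. The genes were chosen for this, so their direction on that array was set by the choice. After the values were seen, 6 ABC genes were picked out whose value in control replicate 2 was more than 0.4 above the mean of control replicates 1 and 3. The gap was 0.64 for Abcd2, 0.62 for Abcb1b, 0.46 for Abca1, 0.44 for Abcc1 and Abcd3 and 0.43 for Abca2. No ABC gene was that far below, and the share of all genes with such a gap was not counted. This gap leaves control replicate 2 out of the mean, so it is larger than a deviation from the mean of all 3 controls. Measured as such a deviation, the median on control replicate 2 was 0.06 over the 48 ABC genes and 0.01 over all genes. On the same array the median deviation from the control mean was 0.20 for 8 Sertoli cell markers, 0.25 for 5 Leydig cell markers, 0.27 for 6 peritubular markers, 0.24 for 7 endothelial markers and 0.30 for 7 leukocyte markers. It was 0.21 for 8 spermatogonial markers and -0.02 for 6 of spermatocytes, and markers of round and elongating spermatids, 6 of each, deviated by -0.05 and -0.04. Control replicate 3 was on the other side, with -0.20 for Leydig cells and -0.33 for leukocytes. For 7 markers of epididymal epithelium the direction was reversed, with -0.14 on control replicate 2 and 0.21 on control replicate 3. Abca1, Abca2, Abcc1 and Abcd3 had their lowest control value on that array. Abcb1b and Abcd2 did not, with 5.09 and 8.03 there against 4.74 and 7.97 on control replicate 1. Mean log2 values of the Leydig list ran from 10.67 to 10.86 with ATZ and from 10.71 to 11.22 in controls, those of the Sertoli list from 9.31 to 9.45 and from 9.28 to 9.65, and those of the leukocyte list from 7.04 to 7.33 and from 7.03 to 7.47. For peritubular cells the means ran from 8.4 to 8.68 and from 8.31 to 8.87, and for endothelial cells from 7.2 to 7.51 and from 7.18 to 7.68. For spermatogonia they ran from 8.2 to 8.47 and from 8.37 to 8.72, with the highest on control replicate 2. Between the groups, all 5 Leydig markers and all 8 spermatogonial markers had log2 changes below 0, with medians of -0.11 and -0.16. Changes were also below 0 for 6 of 8 Sertoli, 6 of 7 leukocyte, 5 of 7 endothelial and 4 of 6 peritubular markers. The count was 4 of 6 for spermatocytes, 3 of 6 for each spermatid list and 1 of 7 for epididymal epithelium. Of all genes 49.1% had a change above 0. With limma no marker had an adjusted p under 0.05, and only Star had an unadjusted p under 0.05 (0.022, adjusted p = 0.998). The smallest unadjusted p of the spermatogonial list was 0.147 from limma. The Leydig list holds Star, which the study itself singled out from these samples, and it is not independent of them. The part of cell composition in the values of the ABC genes was not tested. Control replicate 2 was the highest control array for 23 of the 48 genes (47.9%), and for 37.8% of all genes.

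On control replicate 2, Abca14, Abca15, Abca16, Abca17 and Abcc12 were on the other side of their group mean. For Abca17 control replicates 1 and 2 were nearly tied, at 10.85 and 10.84. All 5 genes had the lowest ATZ value in replicate 1 and the lowest control value in replicate 2. This combination was found in 10 of the 48 ABC genes (20.8%) and in 12.1% of all genes, and the others were Abcb11, Abcg3, Abcg4, Abcg5 and Abcg8. These genes were also picked out after their values were seen, so the counts are a description. On ATZ replicate 1 the median deviation of the marker lists from the ATZ mean was 0.14 for leukocytes, 0.12 for spermatogonia, 0.09 for Sertoli and endothelial cells, 0.06 for Leydig cells, 0.03 for peritubular cells and round spermatids, 0.02 for spermatocytes and -0.01 for elongating spermatids. On ATZ replicate 2, where Abca14, Abca15 and Abca16 had their highest ATZ value, it was 0.16 for peritubular cells, 0.10 for spermatogonia, 0.09 for endothelial cells, 0.06 for leukocytes, 0.04 for elongating spermatids, 0.03 for Leydig cells and spermatocytes, and -0.01 for Sertoli cells and round spermatids. On ATZ replicate 3 the median deviation was -0.20 for leukocytes, -0.18 for spermatogonia and endothelial cells, and -0.17 for peritubular cells. It was -0.10 for Sertoli cells, -0.05 for Leydig cells, and -0.01 for spermatocytes and for both spermatid lists. For epididymal epithelium it was 0.05, -0.13 and 0.01 on ATZ replicates 1, 2 and 3. Of the 6 genes high on control replicate 2, Abca1, Abca2 and Abcc1 had their highest ATZ value on replicate 1, Abcd2 and Abcd3 on replicate 2 and Abcb1b on replicate 3. Their lowest ATZ value was on replicate 3 for Abca1, Abcc1, Abcd2 and Abcd3, on replicate 2 for Abca2 and on replicate 1 for Abcb1b. Control replicate 2 was the highest array for Abca3. For the adjacent gene Abca17 it was the lowest, but only by the near tie given above.

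**Figure D3:**
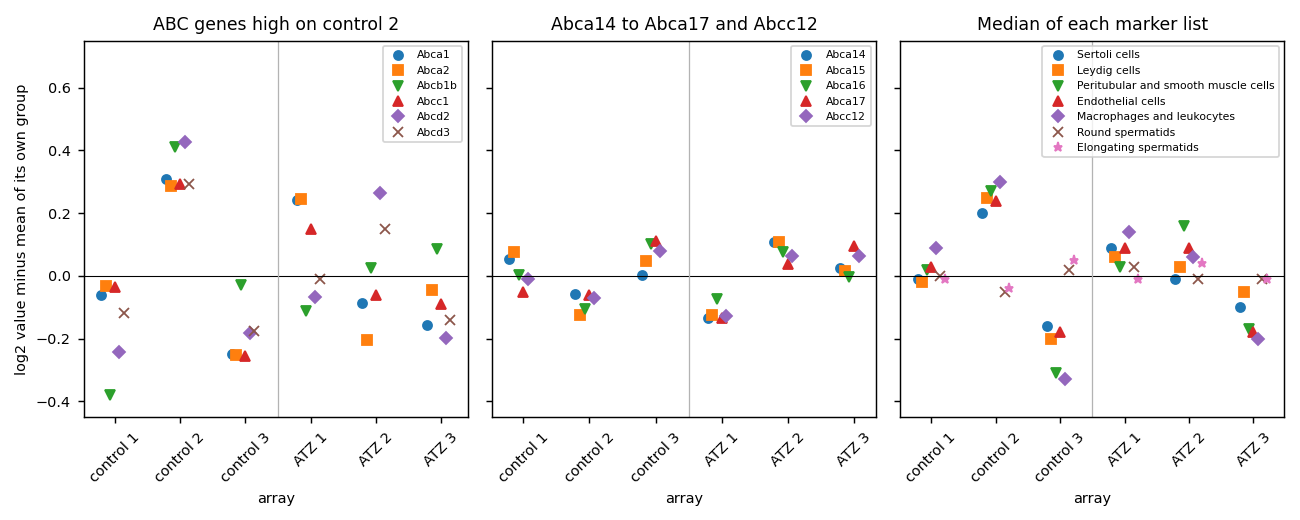
Log2 value minus the mean of its own group (vertical axis) on each of the 6 arrays (horizontal axis), for the 6 ABC genes chosen for a high value in control replicate 2 (left), Abca14 to Abca17 and Abcc12 (middle), and the median over the genes of 7 marker lists (right). The middle genes were also picked after their values were seen. On control 2 the left genes and the somatic lists drawn are above 0, between 0.20 and 0.30 for the lists. The middle genes and the spermatid lists are below 0. Not drawn are the lists of spermatogonia (0.21 on control 2), spermatocytes (-0.02) and epididymal epithelium (-0.14).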

How the data were processed

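RNA of 3 ATZ-treated and 3 control testis samples was hybridized to 1 array each. The authors deposited log2 values with 2 decimals, computed by RMA with the Expression Console of Affymetrix (versions not given in the sources used here). RMA corrects background, normalizes across arrays and summarizes probes, so a shift of all transcripts together would not be seen. No probe set was filtered out here.

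The comparison used lmFit and eBayes of limma 3.58.1 (R 4.3.3, two-sided) over all 41345 probe sets, with Benjamini-Hochberg adjustment over all of them, and 95% intervals came from the same fit. A fold of 1.5, the criterion in the methods of the study, served as the limit for intervals. The script was tested on simulated data. A gene was read from its brightest probe set carrying no other symbol. Every ABC gene is named, with values by array for the 5 highest and 5 lowest changes, the brightest member of each subfamily and genes with known roles in cholesterol or drug export, and for further genes chosen after their values were seen. Members and lists were chosen with earlier results of these data known. Promoter windows came from RefSeq (GRCm38.p6). Tables and figures used Python 3.11.15, pandas 2.3.3 and matplotlib 3.10.9.

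The number of arrays, 3 against 3, limits the precision, and an exact permutation test of 3 against 3 cannot go below 0.1, two-sided. Alternatives were a replicate block, a variance trend with robust settings, array weights, repeated quantile normalization, centring, a filter on dim probe sets, only probe sets with 1 symbol, other choices of probe set and each array left out.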

Additional observations from a re-analysis of the deposited data

How the results depend on the processing

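The count of 0 ABC genes at an adjusted p under 0.05 from limma held under every alternative run. At an unadjusted p under 0.05 it ranged from 0 to 2 when single arrays were left out: 2 without ATZ replicate 1 (Abca7 and Abcg3), 1 without control replicate 1 (Abcb1b) and 1 without control replicate 3 (Abcc4). It was 0 under the alternatives that kept all arrays. The share of all genes that passed with an array left out was not counted, so these calls are a description. The median log2 change of -0.02 ranged from -0.03 to 0.01 without single arrays, and was -0.05 with centred arrays. Over all probe sets the median with centred arrays was -0.03. The sign of single genes turned in 5 to 13 of the 48 genes when an array was left out, in 7 with array weights, in 7 with repeated quantile normalization and in 5 with centred arrays. With the replicate block, no ABC gene changed sign, 0 had an adjusted p under 0.05 and 0 an unadjusted p under 0.05. The labels do not tell if same-numbered samples share more than the number. Their deviations from the group means correlated at 0.02, 0.11 and 0.26 for replicates 1, 2 and 3. The choice of probe set by spread, and probe sets with several symbols, changed nothing, since each ABC gene has 1 probe set. Of genes above the median of all probe-set means, 13 changes were above 0 among 35 ABC genes.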
